A study of Mus musculus with 5 samples.

Results

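The comparison set 10 µM 6OHA against 10 µM bexarotene (BEX), both given for 6 h to MG5 cells, gene by gene. MG5 is a mouse microglial cell line, labelled as WT genotype, and every culture grew partly in medium conditioned by A1, an astrocyte-like mouse cell line. The comparison used 4 of the 5 poly-A RNA-seq libraries analysed here, namely 1 6OHA library (replicate 2) and 3 BEX libraries (replicates 1 to 3). The remaining library (replicate 3), labelled untreated with no vehicle or time given, entered no test. Its levels are printed only to place the others. Genes were kept where the mean over the 5 libraries reached 20 counts, which left 13316 of 45777 genes. Of these, 8926 (67%) had a 6OHA level outside the range of all 3 BEX libraries, 33.6% above it and 33.4% below it. A gene was called when it met that range condition and had an adjusted p under 0.05 by the quasi-likelihood test of edgeR, with p-values adjusted over all 13316 genes by the Benjamini-Hochberg method. The lone 6OHA library was assumed to vary like the BEX libraries, and nothing in the labels says that the BEX replicates were separate cultures. For a single value, an exact one-sided permutation of 1 library against 3 cannot give a p below 0.25.

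The retinoid X receptor (RXR), which BEX activates, is a ligand-driven transcription factor that binds DNA together with a partner receptor. Its partners include the liver X receptors (LXR), which sense oxysterols and switch on cholesterol export, the peroxisome proliferator-activated receptors (PPAR), which sense fatty acids, and the retinoic acid receptors (RAR). In microglia and macrophages these pairs are known for controlling lipid handling, and several of them also restrain inflammatory genes. 6OHA is a code name for another RXR agonist, made by the submitters, and the series asks how its effects differ from those of BEX.

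Libraries held 33823181 to 40545305 counts, with 18273 to 18550 genes above 0. Levels below are CPM, counts scaled to each library's total with TMM factors, which lay between 0.9934 and 1.003. Of 14 microglia and macrophage markers, 13 passed 10 counts in every library, and Sall1 was at 0 in every library. Marker sums, unlike other levels, were scaled to the library total without TMM factors. The sum of these markers was 8320 CPM with 6OHA and 8280 to 8310 CPM with BEX. Astrocyte markers summed to 15.7 CPM with 6OHA and 17.8 to 20.6 CPM with BEX, and Aqp4 and Gjb6 were at 0 throughout. The neuron marker Rbfox3, the oligodendrocyte markers Mog, Olig2 and Sox10 and the fibroblast markers Col1a1 and Col3a1 were also at 0. Some other markers of these sets were present. Oligodendrocyte markers summed to 100 CPM with 6OHA and 101 to 103 CPM with BEX, mostly from Mbp (94.7 CPM and 93.0 to 94.1 CPM). Neuron markers summed to 9.79 CPM with 6OHA and 8.75 to 9.65 CPM with BEX. Fibroblast and endothelial markers summed to 214 CPM with 6OHA and 188 to 192 CPM with BEX. The endothelial marker Kdr was the one gene of these other cell types that was called, at 206.7 CPM with 6OHA and 177.4 to 182.4 CPM with BEX (log2 fold change 0.20 ± 0.07 SE, adjusted p = 0.0154). The 6OHA library was farther from each BEX library than the BEX libraries were from each other. Across genes, the SD of log2 differences was 0.257 to 0.267 in the former pairs and 0.211 to 0.216 in the latter.

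At equal dose, 1205 genes (9.05% of those tested) differed between 6OHA and BEX. With 6OHA 472 genes were higher (3.54%) and 733 were lower (5.5%). These shares over all tested genes are called the background below. Most differences were small, with a median absolute log2 fold change of 0.3 among called genes. A change of 2-fold or more was seen for 14 genes that were higher and 44 that were lower. Some of the widest differences among the better-expressed genes named here were in the cholesterol exporters Abcg1 and Abca1 and the ubiquitin ligase Mylip, higher with 6OHA, and arginase 1 (Arg1), the kinase Camkk1 and the metallothioneins Mt1 and Mt2, lower with 6OHA. Interferon-stimulated genes and genes of the integrated stress response were lower with 6OHA as groups of many small differences. The median log2 fold change over all tested genes was -0.00118. The split between directions differed once the counts were corrected for GC content and transcript length together. Among called genes 39.2% were higher with 6OHA, against 52.2% (524 higher, 479 lower) with that correction. The corrected fit covered the 12714 tested genes with known GC content and length, and the 2 properties were not corrected for separately.

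**Figure D1:**
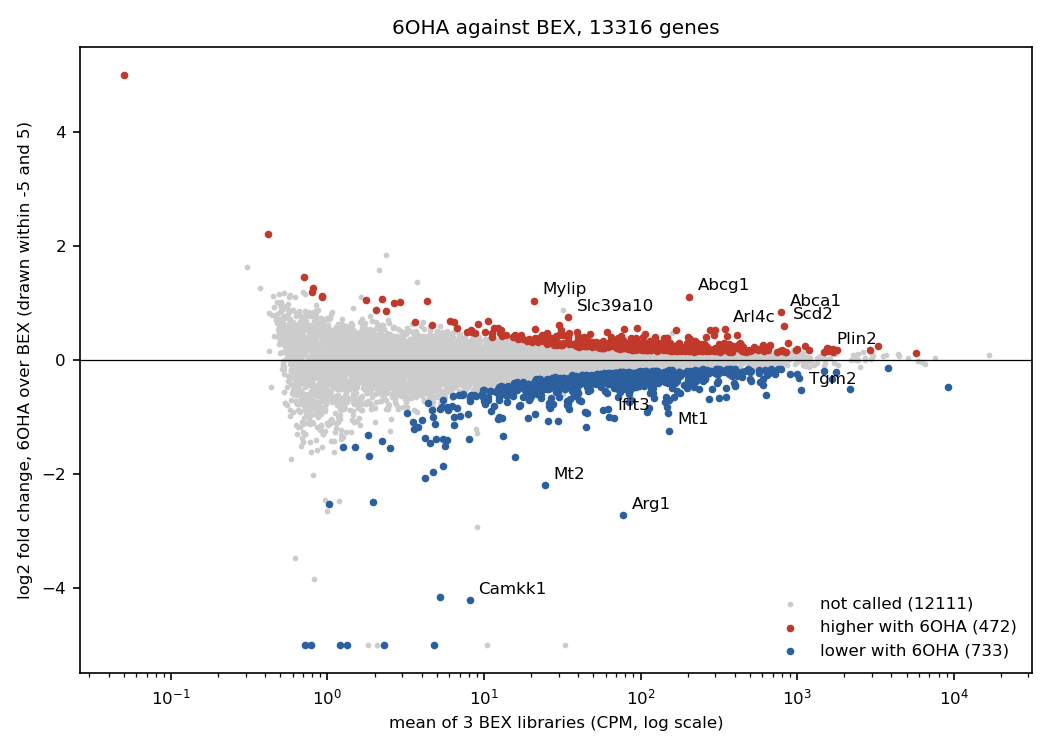
Log2 fold change of 6OHA over BEX (y axis, drawn within -5 and 5) against the mean BEX level in CPM (x axis, log scale) for 13316 genes. Each point is a gene, red for the 472 called higher and blue for the 733 called lower, and a gene with a BEX mean of 0 is drawn at 0.05. Abcg1, Mylip and Abca1 stand above the other well-expressed genes, and Arg1, Camkk1 and Mt2 below them.

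LXR target genes included some of the larger rises. Of 24 tested members of a 29-gene list, 12 were higher (50.0%, against 3.54% of all tested genes), 1 was lower and 11 were not called, with a median log2 fold change of 0.15. The direction was the same under the GC and length correction, with 12 higher and 1 lower. Abcg1 (gene 11307, chr17:31057694-31117984), which moves cholesterol onto lipoproteins, measured 442.9 CPM with 6OHA and 203.1, 198.9 and 210.4 CPM with BEX. The 6OHA level was more than any BEX level by a wide margin, and BEX lay near the 224.5 CPM of the untreated library. The log2 fold change was 1.12 ± 0.07 SE (2.17-fold, adjusted p = 7.21e-10). Abca1, which exports cholesterol to apolipoproteins, measured 1426 CPM with 6OHA, 798.6, 814.6 and 766.3 CPM with BEX and 400.2 CPM untreated. Both compounds thus gave levels over that of the untreated library, and 6OHA the higher one (log2 fold change 0.85 ± 0.06, 1.80-fold, adjusted p = 7.68e-09). Mylip (gene 218203), a ubiquitin ligase that lowers cholesterol uptake, measured 42.9 CPM with 6OHA and 19.6, 21.7 and 21.0 CPM with BEX. BEX libraries lay under the untreated level of 28.2 CPM and the 6OHA library over it (log2 fold change 1.05 ± 0.11, 2.07-fold, adjusted p = 1.76e-06).

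Windows around the transcription starts of Abca1, Srebf1 and Fasn are shown because they share a run of letters that is rare among promoters. The Abca1 promoter is known for an LXR element, a direct repeat of a receptor half-site with 4 bases between the copies. Its letters as they stand in this window, GGTTANNNNCGGTCA, were searched on both strands in 32851 RefSeq windows of 300 bases (GRCm38.p6, 250 bases before to 50 after each start). They were found in 4 windows (0.0122%), those of Abca1, Srebf1, Fasn and Prrg4. The match in Abca1 follows from the choice of letters. Of the 22 windows of 16 LXR list members 2 held it, those of Abca1 and Srebf1, and Fasn is not on that list. The 250 bases before each start are printed on the strand of the gene, with the match in capitals (its reverse complement in all 3), at chr4:53159896-53160145 (minus strand) for Abca1, chr11:60210472-60210721 (minus strand) for Srebf1 and chr11:120824548-120824797 (minus strand) for Fasn.
Abca1: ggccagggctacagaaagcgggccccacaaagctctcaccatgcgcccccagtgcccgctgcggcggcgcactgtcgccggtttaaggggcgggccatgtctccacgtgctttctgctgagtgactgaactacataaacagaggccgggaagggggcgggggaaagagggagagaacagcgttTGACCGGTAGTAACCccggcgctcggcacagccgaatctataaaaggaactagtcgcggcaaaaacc
Srebf1: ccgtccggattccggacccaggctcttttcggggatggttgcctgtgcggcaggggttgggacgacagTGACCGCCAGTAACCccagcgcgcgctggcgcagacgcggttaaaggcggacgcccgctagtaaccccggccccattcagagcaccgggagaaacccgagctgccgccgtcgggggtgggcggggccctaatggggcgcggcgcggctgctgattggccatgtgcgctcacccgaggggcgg
Fasn: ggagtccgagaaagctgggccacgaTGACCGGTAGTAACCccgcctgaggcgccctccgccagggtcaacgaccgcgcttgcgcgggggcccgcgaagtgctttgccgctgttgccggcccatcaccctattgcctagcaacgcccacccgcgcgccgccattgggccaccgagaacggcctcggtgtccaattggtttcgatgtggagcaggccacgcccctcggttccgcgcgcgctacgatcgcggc
The matches begin at -67 in Abca1, -182 in Srebf1 and -225 in Fasn, counted from the start of transcription. Abca1, Srebf1 and, less firmly, Fasn were called higher with 6OHA, and Prrg4, at 0.899 CPM with 6OHA and 0.855 to 1.00 CPM with BEX, stayed uncalled at -0.07 (adjusted p = 0.948). A stricter repeat, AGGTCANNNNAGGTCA, was in 5 windows (0.0152%) and in none of those 22 windows. A match describes letters and does not show that a receptor binds there.

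Srebf1 encodes the SREBP-1 transcription factor, which drives fatty acid synthesis. It measured 160.9 CPM with 6OHA and 118.5, 127.7 and 124.8 CPM with BEX, so that BEX lay under the untreated 150.5 CPM and 6OHA over it (log2 fold change 0.38 ± 0.08, adjusted p = 0.000444). The small GTPase-like gene Arl4c had the same order, at 506.5 CPM with 6OHA, 336.4, 348.1 and 349.1 CPM with BEX and 433.8 CPM untreated (log2 fold change 0.56 ± 0.06, adjusted p = 1.32e-06). The stearoyl-CoA desaturase Scd2, which makes monounsaturated fatty acids, measured 1255 CPM with 6OHA and 825.7, 846.8 and 801.0 CPM with BEX (log2 fold change 0.61 ± 0.06, adjusted p = 3.67e-07). Further LXR list members called higher were Scd1 (log2 fold change 0.39), Acsl3 (0.39), Lpl (0.40), Lpcat3 (0.29), Stard4 (0.21) and Npc1 (0.21). The mitochondrial translocator protein gene Tspo was the one member called lower, at 97.8 CPM with 6OHA against 125.2 to 131.2 CPM.

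Not every LXR target separated the compounds. Apoe, the main lipid carrier made by glia, measured 696.6 CPM with 6OHA and 734.6, 813.3 and 803.5 CPM with BEX. It fell outside the BEX range but missed the threshold (log2 fold change -0.17, 95% interval -0.33 to -0.01, adjusted p = 0.0533), and with the GC and length correction its log2 fold change was 0.00129. The engulfment receptor Mertk measured 77.8 CPM with 6OHA and 76.8 to 78.7 CPM with BEX (log2 fold change 0.00287, interval -0.16 to 0.17), within the BEX range. Apoc2 had a log2 fold change of -0.11 (interval -0.36 to 0.14), and 79.5% of its exonic bases are shared with Gm44805 on the same strand.

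The receptors themselves differed little. No member of the 26 tested nuclear receptors and coregulators was higher, and 3 were lower (11.5%, background 5.5%). Nr1h2, the LXR-beta gene, measured 37.6 CPM with 6OHA and 47.3, 51.6 and 50.4 CPM with BEX (log2 fold change -0.41 ± 0.10, adjusted p = 0.00368). Rxrb measured 29.5 CPM with 6OHA and 35.1 to 38.6 CPM with BEX (log2 fold change -0.30, adjusted p = 0.036), and the orphan receptor gene Esrra 16.2 CPM against 21.4 to 24.1 CPM (-0.48, adjusted p = 0.0102). Nr1h2 and Rxrb have a GC content of 60.6% and 61.4%, and both lost their calls under the GC and length correction (adjusted p = 0.0832 and 0.57). Rxra was not called, at 138.1 CPM with 6OHA and 146.1 to 150.8 CPM with BEX (log2 fold change -0.10, interval -0.25 to 0.05). Nr1h3, the LXR-alpha gene, lay between 0.464 and 0.768 CPM in these libraries and was not called, and Pparg, Ppara and Rxrg had 0 counts in every library, which allows up to 3 counts in each.

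**Figure D2:**
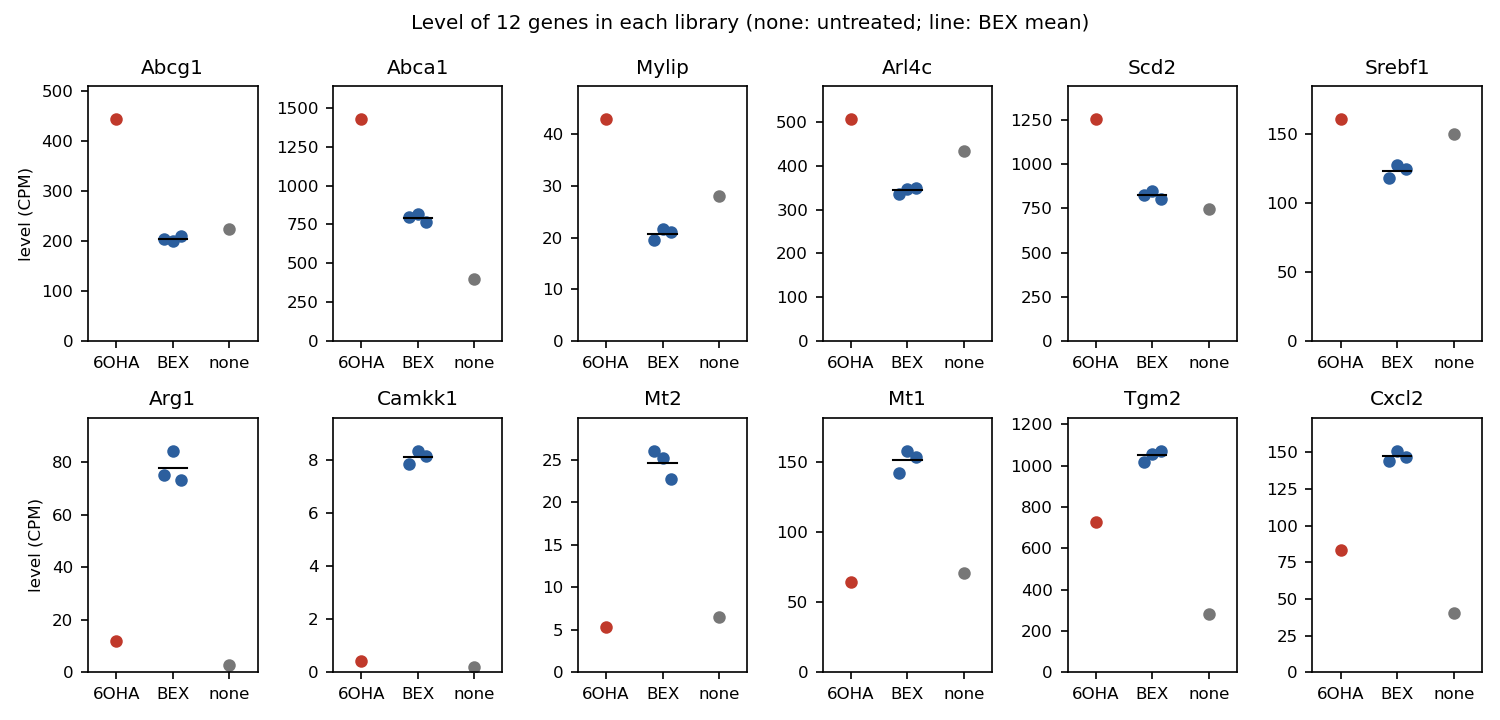
Level in CPM (y axis, from 0, own scale per gene) of 12 genes in the 6OHA library (red), the 3 BEX libraries (blue, with their mean as a line) and the untreated library (grey). For every gene shown the 6OHA point lies outside the BEX points, above them in the upper row and below them in the lower row.

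Lipid synthesis genes leaned higher with 6OHA. Of 28 tested genes of fatty acid and triglyceride synthesis, 8 were higher (28.6%, background 3.54%) and 0 lower, with a median log2 fold change of 0.07. Under the GC and length correction 10 were higher and 0 lower. Acaca, which makes malonyl-CoA, the first committed step of fatty acid synthesis, measured 267.3 CPM with 6OHA and 205.6, 210.6 and 186.1 CPM with BEX. Its log2 fold change was 0.41 ± 0.08 (adjusted p = 0.000464). Fatty acid synthase (Fasn) measured 739.2 CPM with 6OHA and 637.0, 687.7 and 631.7 CPM with BEX, a smaller step (log2 fold change 0.18 ± 0.07, adjusted p = 0.0281). The Fasn call was lost without BEX replicate 1 (adjusted p = 0.104), without BEX replicate 3 (0.0673), with no filter (0.186) and on log2(TPM + 1) and log2(TPM + 0.1) (0.154 and 0.15). The long-chain acyl-CoA ligase gene Acsl4 (log2 fold change 0.28) and the elongase gene Elovl5 (0.19) were also higher. Genes of the last steps of triglyceride synthesis were not called, with Dgat1 at a log2 fold change of -0.31 and Dgat2 at -0.59. Of the 8 called genes, Srebf1, Scd1, Scd2 and Acsl3 also stand on the LXR list, so the counts of the lists are not separate evidence.

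Cholesterol synthesis and uptake gave 11 higher (35.5%, background 3.54%), 0 lower and 20 not called among 31 tested genes. The median log2 fold change was 0.14. Enzymes called higher included Hmgcs1 (log2 fold change 0.25), Idi1 (0.25), lanosterol synthase Lss (0.38), Cyp51 (0.19), Msmo1 (0.26) and Acat2 (0.24). Lss measured 51.9 CPM with 6OHA, 37.7, 41.1 and 41.0 CPM with BEX and 32.9 CPM untreated (adjusted p = 0.00462). The master regulator of this pathway, Srebf2, went the other way without passing the threshold, at 172.6 CPM against 188.9 to 195.4 CPM (log2 fold change -0.16, adjusted p = 0.0578).

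PPAR and lipid droplet genes were called in both directions, more often higher, with 4 higher, 2 lower and 14 not called among 20 tested. Both shares were over the background (3.54% higher and 5.5% lower). Under the GC and length correction 5 were higher and 1 lower. Plin2, the coat protein of lipid droplets, measured 1762 CPM with 6OHA and 1578, 1572 and 1562 CPM with BEX, against 429.5 CPM untreated. Both compounds were thus far over the untreated library, and the step between them was small (log2 fold change 0.17 ± 0.05, adjusted p = 0.0102). Cpt1a, the gate of mitochondrial fatty acid oxidation, had the same order, at 199.5 CPM against 168.3 to 174.2 CPM (log2 fold change 0.22, adjusted p = 0.00878). Hilpda, which blocks triglyceride lipolysis, was lower, at 33.1 CPM with 6OHA and 39.6 to 42.6 CPM with BEX (log2 fold change -0.32, adjusted p = 0.0189), as was the lipase gene Lipe (-0.39). Angptl4, an inhibitor of lipoprotein lipase, was not called (log2 fold change 0.17, interval -0.14 to 0.47). Among 30 tested fatty acid oxidation genes 1 was higher and 2 were lower (3.33% and 6.67%), near the shares over all tested genes.

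The retinoid genes that were called were lower with 6OHA. The list of RAR targets and retinoid metabolism held 13 tested genes, with 2 lower (15.4%, background 5.5%) and 0 higher. Transglutaminase 2 (Tgm2), a protein crosslinking enzyme and a classic retinoid target, measured 727.5 CPM with 6OHA, 1020, 1058 and 1072 CPM with BEX and 285.0 CPM untreated. The retinal reductase gene Dhrs3 measured 297.1 CPM with 6OHA, 392.4, 393.2 and 392.9 CPM with BEX and 239.3 CPM untreated. In both genes the 6OHA library lay between the untreated library and BEX. The log2 fold changes were -0.53 ± 0.06 (adjusted p = 2.2e-06) and -0.40 ± 0.06 (adjusted p = 3.94e-05).

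Arg1 (gene 11846, chr10:24915207-24927470), which splits arginine and is a textbook marker of alternatively activated macrophages, measured 11.8 CPM with 6OHA and 75.3, 84.4 and 73.5 CPM with BEX. The untreated library stood at 2.79 CPM, so 6OHA lay between it and BEX, and in CPM nearer to the untreated library. Arg1 was 6.58-fold lower with 6OHA than with BEX (log2 fold change -2.72 ± 0.15, adjusted p = 7.21e-10). The other genes on the list of alternative activation did not share one direction. With Arg1 included, 4 were higher (23.5%), 6 lower (35.3%) and 7 not called of 17 tested (background 3.54% and 5.5%). The lectin receptor genes Clec10a (log2 fold change -0.65), Mgl2 (-0.23) and Clec7a (-0.73) were lower, as was fibronectin (Fn1, -0.20). The mannose receptor gene Mrc1 (0.18), the scavenger receptor gene Msr1 (0.25), Stat6 (0.19) and Il1rn (0.15) were higher.

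Camkk1 (gene 55984, chr11:73016043-73042073) encodes a calcium-dependent kinase that switches on other kinases. It had 15 counts with 6OHA and 266, 303 and 329 counts with BEX, and 7 counts untreated. In CPM this was 0.435 against 7.85, 8.36 and 8.15, with the 6OHA and untreated libraries low and the BEX libraries close together. The fall was 18.5-fold (log2 fold change -4.21 ± 0.63, adjusted p = 1.06e-06). Of 23 tested CaMKK and AMPK kinase genes, Camkk1 included, 1 was higher (4.35%, background 3.54%) and 3 were lower. The share lower was over the background of 5.5%. Prkaa1, a catalytic subunit of AMPK, was higher (log2 fold change 0.22), and Strada (-0.36) and Ulk1 (-0.39) were lower, the last losing its call under the GC and length correction (adjusted p = 0.121).

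Metallothioneins, small proteins that bind zinc and copper, were lower with 6OHA. Mt1 measured 64.2 CPM with 6OHA, 142.3, 158.0 and 153.7 CPM with BEX and 70.8 CPM untreated. Mt2 measured 5.37 CPM with 6OHA, 26.1, 25.2 and 22.7 CPM with BEX and 6.48 CPM untreated. For both genes the 6OHA library stood beside the untreated library and apart from BEX. The log2 fold changes were -1.24 ± 0.09 (2.36-fold lower, adjusted p = 3.2e-08) and -2.20 ± 0.20 (4.58-fold lower, adjusted p = 3.24e-07). The zinc importer genes Slc39a10 and Slc39a6 went the other way. Slc39a10 measured 58.2 CPM with 6OHA, 33.3, 37.3 and 33.2 CPM with BEX and 54.8 CPM untreated (log2 fold change 0.75 ± 0.10, adjusted p = 2.56e-05). Slc39a6 had a log2 fold change of 0.22 (adjusted p = 0.00563). Ferritin light chain (Ftl1), an iron store, was lower at 6582 CPM with 6OHA against 8720 to 9850 CPM, and the iron exporter gene Slc40a1 was higher (log2 fold change 0.26). The list as a whole had 3 higher and 3 lower (each 16.7%, background 3.54% and 5.5%) and 12 not called.

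The Mt2 window is shown because metal response elements, the sites of the zinc-sensing factor MTF-1, are known in metallothionein promoters. Their core letters TGCACNC and TGCGCNC were searched on both strands and counted separately. They were in 12.6% and 15.4% of all 32851 windows and in 4 and 6 of 15 windows of the metal list. Among the 12650 windows of tested genes the shares were 12.5% and 25.0%. The 250 bases before the start, chr8:94172368-94172617 on the plus strand, hold 3 matches, in capitals, at -223, -128 and -50.
Mt2: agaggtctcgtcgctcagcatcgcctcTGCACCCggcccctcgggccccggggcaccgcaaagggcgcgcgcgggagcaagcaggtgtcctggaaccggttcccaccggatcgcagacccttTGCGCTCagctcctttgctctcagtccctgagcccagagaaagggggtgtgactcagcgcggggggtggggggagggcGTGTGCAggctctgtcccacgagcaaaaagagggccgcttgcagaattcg
The cores are common letters, and a match here is a description of the window alone.

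Genes of the integrated stress response were lower with 6OHA as a group. This pathway halts bulk translation under amino acid or organelle stress while the transcription factor ATF4 switches on amino acid transport and synthesis. Of 41 tested genes, 24 were lower (58.5%, background 5.5%), 0 were higher and 17 not called, with a median log2 fold change of -0.27. The counts under the GC and length correction were the same, 24 lower and 0 higher. A 6OHA level under all 3 BEX levels was seen for 35 of the 41 genes, against 33.4% of all tested genes. Atf4 itself measured 289.6 CPM with 6OHA, 390.2, 396.1 and 409.4 CPM with BEX and 291.8 CPM untreated. The 6OHA and untreated libraries were thus alike and BEX higher (log2 fold change -0.46 ± 0.06, adjusted p = 1.87e-05).

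Several ATF4 targets repeated that order. The pseudokinase gene Trib3 measured 31.5 CPM with 6OHA, 59.3, 58.1 and 55.8 CPM with BEX and 37.4 CPM untreated (log2 fold change -0.87 ± 0.10, adjusted p = 3.99e-06). The leucine transporter gene Slc7a5 measured 93.7 CPM with 6OHA, 159.3, 147.5 and 147.1 CPM with BEX and 100.4 CPM untreated (-0.69 ± 0.08, adjusted p = 4.87e-06). Sesn2, a leucine sensor that restrains mTORC1, measured 20.6 CPM against 32.2 to 34.8 CPM (-0.71 ± 0.12, adjusted p = 0.000183). Among transporters, Slc6a9 (log2 fold change -0.67), Slc1a4 (-0.56), Slc3a2 (-0.32), Slc7a1 (-0.20) and Slc1a5 (-0.19) were lower. Of the serine and one-carbon enzymes, Phgdh (-0.37), Psph (-0.34), Shmt2 (-0.42) and Mthfd2 (-0.31) were lower. The tRNA synthetase genes Wars (-0.57), Cars (-0.31), Tars (-0.28), Aars (-0.21), Sars (-0.21) and Lars (-0.16) were lower too. Not called were Slc7a11, the cystine importer (-0.02), Slc38a2 (0.03), Atf3 (0.08) and Asns (-0.15, adjusted p = 0.0538). The unfolded protein response, a neighbouring stress pathway, had 2 higher (7.14%), 3 lower (10.7%) and 23 not called of 28 tested genes (background 3.54% and 5.5%). Its median was 0.00822. The letters TGATGNAA, the core of the ATF4 element, were in 12 of 36 windows of list members and in 3.97% of all windows. Among windows of tested genes the share was 2.43%. Windows of called members held the letters in 5 of 21 cases, so the matches were not concentrated in the genes that were lower.

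Interferon-stimulated genes had the largest share of calls of all the lists. They encode antiviral proteins and are switched on by interferon signalling. Of 40 tested genes, 32 were lower with 6OHA (80.0%, background 5.5%), 0 were higher and 8 were not called. Under the BEX range lay all 40, against 33.4% of all tested genes. The median log2 fold change was -0.32, and the correction for GC and length again gave 32 lower and 0 higher. Their summed level was 2728 CPM with 6OHA, 3584, 3270 and 3697 CPM with BEX and 3255 CPM untreated. BEX replicate 2, which has the same replicate number as the 6OHA library, was the lowest of the BEX libraries and near the untreated library. The 6OHA library was lower than both BEX replicate 2 and the untreated library. An effect of the replicate was not tested. In this RNA from whole cultures, fewer cells with the response and less of it per cell cannot be told apart.

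**Figure D3:**
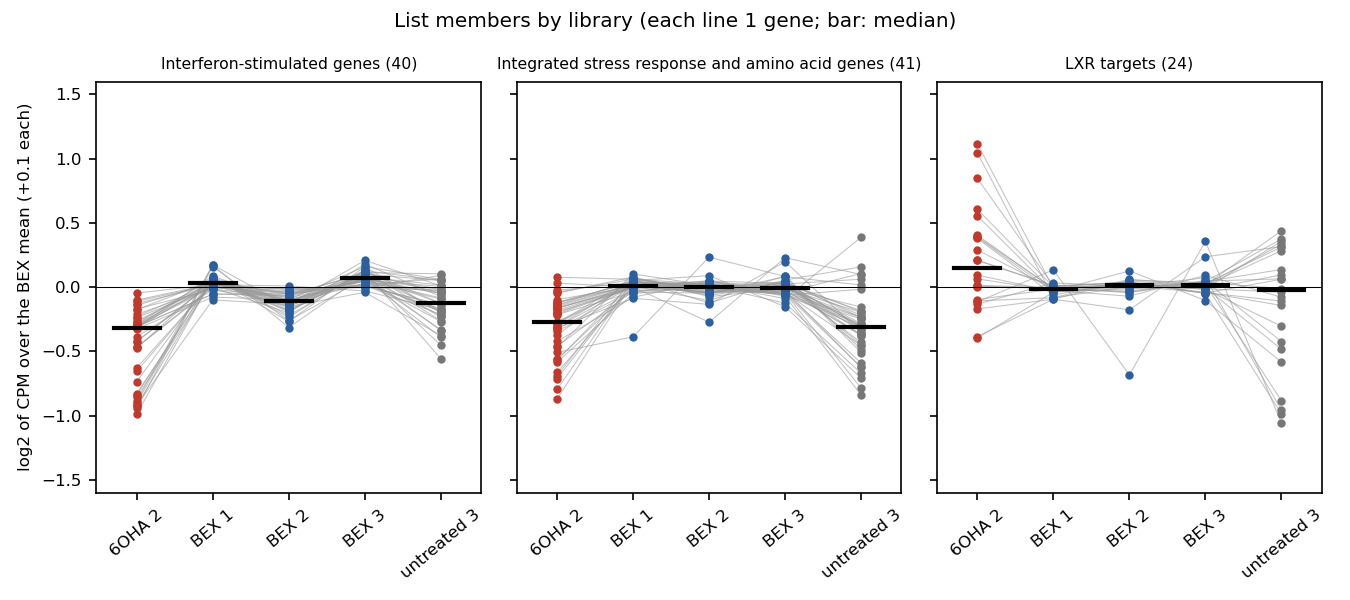
Log2 of each gene's CPM over its BEX mean (y axis, 0.1 CPM added to both) in each library (x axis) for 40 interferon-stimulated genes, 41 integrated stress response genes and 24 LXR targets. Each line is 1 gene and each bar a median. The 6OHA medians are -0.32, -0.27 and 0.15, and the untreated medians -0.13, -0.31 and -0.02.

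Ifit3, an antiviral RNA-response protein, measured 31.6 CPM with 6OHA, 66.1, 53.5 and 69.1 CPM with BEX and 54.9 CPM untreated. The 6OHA library stood alone at the bottom (log2 fold change -0.99 ± 0.16, adjusted p = 9.58e-05). Cmpk2, a nucleotide kinase, measured 24.0 CPM against 47.5, 40.5 and 48.5 CPM (-0.93 ± 0.14, adjusted p = 5.58e-05), and viperin (Rsad2) 63.1 CPM against 118.7, 96.8 and 122.7 CPM (-0.84 ± 0.14, adjusted p = 0.00013). Oasl1, which dampens Irf7 translation in mice, measured 77.5 CPM against 113.4 to 127.7 CPM (-0.66 ± 0.09, adjusted p = 3.1e-05). The signalling genes Stat2 (log2 fold change -0.47), Irf7 (-0.31) and Irf9 (-0.30) were lower as well. Mx1 (-0.83), Mx2 (-0.89), Ifit1 (-0.86), Ifit2 (-0.74) and Isg15 (-0.63) stood among the larger differences. Uncalled members such as Oas2 (-0.11), Eif2ak2 (-0.10) and Slfn8 (-0.05) had small values. Some of these genes have close copies, among them Ifit3 and Ifit3b and the Oas genes, and reads could be split between copies.

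Windows of 2 members are shown because the interferon-stimulated response element (ISRE), a binding site of interferon-activated factors, is well known in this family. The letters GAAANNGAAA were searched on both strands. They were in 19 of 37 windows of 30 list members and in 3.44% of all 32851 windows. Ifit3 is at chr19:34583279-34583528 (plus strand) with matches at -156 and -122, and Isg15 at chr4:156200819-156201068 (minus strand) with overlapping matches at -78, -72 and -66. Capitals mark the matches, as the reverse complement in Ifit3.
Ifit3: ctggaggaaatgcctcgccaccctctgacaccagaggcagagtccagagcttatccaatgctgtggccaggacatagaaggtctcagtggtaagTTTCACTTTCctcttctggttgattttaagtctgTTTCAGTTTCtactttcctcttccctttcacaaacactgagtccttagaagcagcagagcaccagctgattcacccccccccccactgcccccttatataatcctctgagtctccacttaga
Isg15: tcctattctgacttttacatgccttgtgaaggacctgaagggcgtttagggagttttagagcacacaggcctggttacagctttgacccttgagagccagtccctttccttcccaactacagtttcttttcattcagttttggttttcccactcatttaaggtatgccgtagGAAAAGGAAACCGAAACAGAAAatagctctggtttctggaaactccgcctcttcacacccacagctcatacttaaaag
Both genes were lower with 6OHA. Among the windows of called members 14 of 30 held the letters.

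Antigen presentation genes, many of them interferon-responsive, gave 0 higher, 9 lower (36.0%, background 5.5%) and 16 not called of 25 tested. The peptide transporter gene Tap1 measured 81.2 CPM with 6OHA and 122.3, 107.9 and 119.3 CPM with BEX (log2 fold change -0.52 ± 0.09, adjusted p = 0.000278). The immunoproteasome genes Psmb10 (-0.43), Psmb9 (-0.31) and Psmb8 (-0.22) and the class I genes H2-Q7 (-0.34) and H2-Q4 (-0.25) were also lower. The GC and length correction gave 0 higher and 5 lower, and Tapbp, 24.9% of whose exonic bases face Gm19412 on the opposite strand, lost its call there (adjusted p = 0.178). H2 class I genes are near copies of each other, so the division of reads among them is uncertain.

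**Figure D4:**
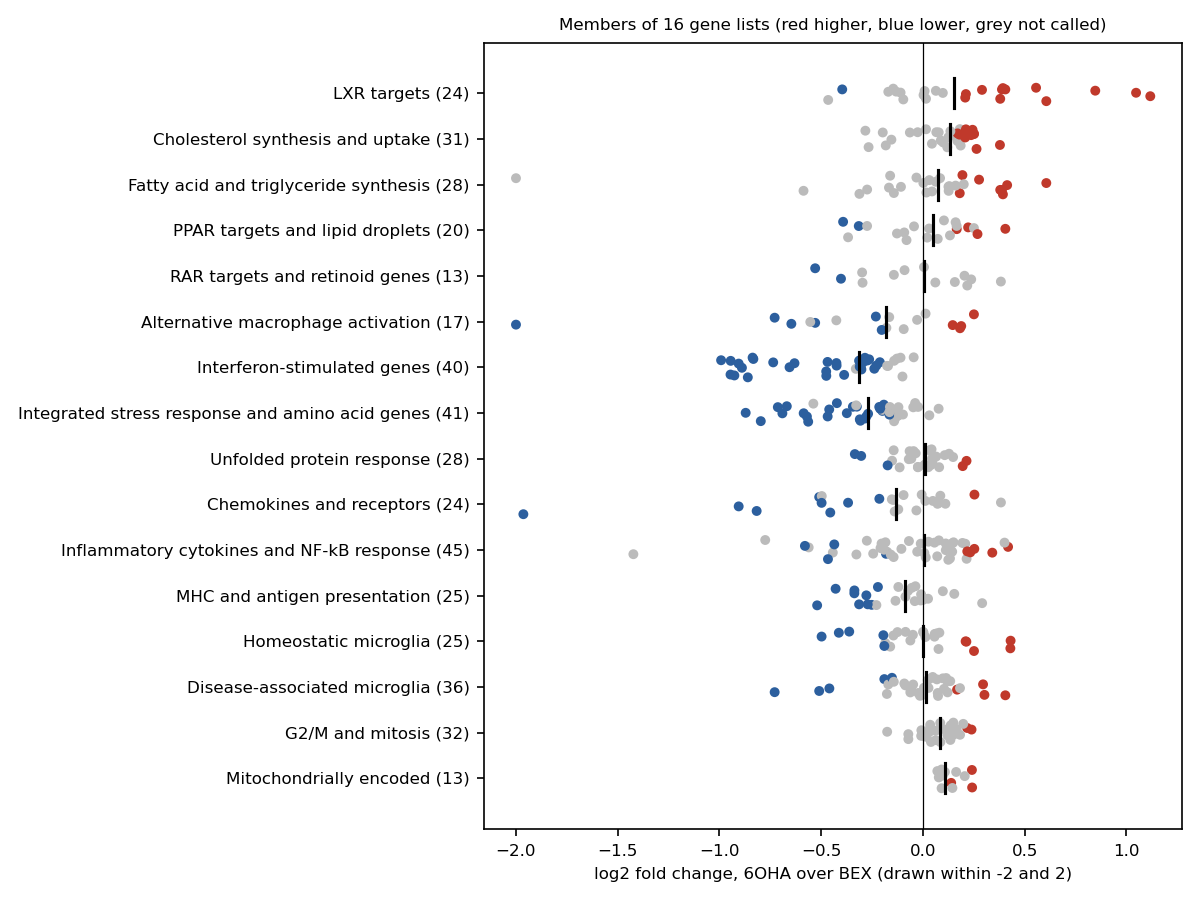
Log2 fold change of 6OHA over BEX (x axis, drawn within -2 and 2) for the tested members of 16 gene lists, with the number tested after each name. Red points were called higher, blue lower and grey not called, and black lines are medians. Interferon-stimulated and integrated stress response genes lie mostly left of 0, and LXR and cholesterol genes mostly right.

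Chemokines and their receptors were mostly lower where called. Of 24 tested, 1 was higher (4.17%), 8 were lower (33.3%) and 15 were not called (background 3.54% and 5.5%). Cxcl2, a neutrophil attractant, measured 83.6 CPM with 6OHA, 143.9, 151.1 and 147.1 CPM with BEX and 40.7 CPM untreated (log2 fold change -0.82 ± 0.08, adjusted p = 4.47e-07). Ccl6 measured 1528 CPM with 6OHA, 2197, 2150 and 2181 CPM with BEX and 702.2 CPM untreated (-0.51 ± 0.05, adjusted p = 1.14e-06). In both genes 6OHA lay between the untreated library and BEX. The interferon-induced chemokine Cxcl10, which stands on both lists, measured 23.5 CPM with 6OHA and 49.2, 36.8 and 46.3 CPM with BEX (-0.91 ± 0.17, adjusted p = 0.000522). The fractalkine receptor gene Cx3cr1 (-0.50), the scavenging receptor gene Ackr3 (-1.96) and the complement receptor gene C5ar1 (-0.21) were lower, and Cxcr4 was higher (0.25).

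Inflammatory genes did not share one direction, with a median of 0.00685. Of 45 tested, 5 were higher (11.1%), 4 lower (8.89%) and 36 not called (background 3.54% and 5.5%). The endotoxin receptor gene Tlr4 measured 297.5 CPM with 6OHA, 405.7, 399.9 and 401.9 CPM with BEX and 232.5 CPM untreated (log2 fold change -0.44 ± 0.06, adjusted p = 1.87e-05). Ikbke, a kinase of the interferon-inducing pathway, measured 120.0 CPM against 171.9 to 186.9 CPM (-0.58 ± 0.08, adjusted p = 1.78e-05). Tnf was just over the threshold, at 46.7 CPM with 6OHA, 38.7, 41.4 and 37.5 CPM with BEX and 67.5 CPM untreated (0.25 ± 0.10, adjusted p = 0.0495). Omitting BEX replicate 1 or 3 ended the Tnf call, with an adjusted p of 0.11 or 0.112. Il1b was not called (log2 fold change 0.13, interval -0.24 to 0.49). Tnip3 (0.42), Tnfaip2 (0.34), Cflar (0.23) and Nlrp3 (0.22) were higher.

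Microglial identity genes were split. Homeostatic genes gave 5 higher and 5 lower of 25 tested, with a median of 0.000546. Although that median was near 0, both shares were well over the background (3.54% higher and 5.5% lower). The purinergic receptor genes P2ry13 (log2 fold change 0.43) and P2ry12 (0.21), the interleukin-10 receptor gene Il10ra (0.43) and Tgfbr1 (0.25) were higher. Cx3cr1 and the transporter gene Slco2b1 (-0.41) were lower. Disease-associated microglia genes gave 4 higher and 5 lower of 36 tested (11.1% and 13.9%, background 3.54% and 5.5%). Lpl (0.40) and the inhibitory receptor genes Lilrb4a (0.30) and Lilr4b (0.30), near copies of each other, were higher. The cholesterol 25-hydroxylase gene Ch25h, whose product is an oxysterol, measured 84.1 CPM with 6OHA, 114.0, 115.7 and 117.4 CPM with BEX and 217.0 CPM untreated (log2 fold change -0.46 ± 0.07, adjusted p = 0.000111).

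Genes linked to Alzheimer's disease gave 4 higher (11.1%, background 3.54%) and 2 lower of 36 tested. The share lower, 5.56%, was near the background of 5.5%. Trem2, a lipid-sensing receptor of microglia, measured 287.1 CPM with 6OHA, 316.6, 333.8 and 332.0 CPM with BEX and 348.8 CPM untreated (log2 fold change -0.19 ± 0.07, adjusted p = 0.0194). Cd33, an inhibitory receptor, was higher at 112.3 CPM against 91.7 to 99.7 CPM (0.23, adjusted p = 0.022), and Inpp5d (0.16) was higher too. Sorl1, a sorting receptor for the amyloid precursor, was lower (-0.26). Phagocytosis genes gave 6 higher and 5 lower of 41 tested (14.6% and 12.2%, background 3.54% and 5.5%). The phosphatidylserine receptor gene Havcr2 measured 183.6 CPM against 140.4 to 141.3 CPM (0.38 ± 0.07, adjusted p = 0.000143), and Itgb3 (0.53), Elmo1 (0.29), Scarb2 (0.27) and Cd300a (0.26) were also higher. Complement C1qa was lower at 1322 CPM against 1610, 1691 and 1714 CPM (-0.34 ± 0.06, adjusted p = 0.000183), with C1qc at -0.31.

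Vegfa, the vascular growth factor, measured 122.1 CPM with 6OHA, 150.7, 156.0 and 152.0 CPM with BEX and 19.1 CPM untreated. Both compounds were far over the untreated library and 6OHA less so (log2 fold change -0.32 ± 0.07, adjusted p = 0.00107). Hypoxia and glycolysis genes gave 0 higher and 5 lower of 38 tested (13.2% lower, background 5.5%). Among the lower genes were the glucose-trapping enzyme gene Hk2 (-0.38), Pfkl (-0.43) and the glucose transporter gene Slc2a1 (-0.25). NRF2 and antioxidant genes gave 1 higher and 8 lower of 33 tested (3.03% and 24.2%, background 3.54% and 5.5%). Glutathione reductase (Gsr) measured 85.8 CPM with 6OHA, 117.7, 117.3 and 126.3 CPM with BEX and 86.2 CPM untreated (-0.49 ± 0.08, adjusted p = 0.00014), and Osgin1 had a log2 fold change of -0.57. Lysosomal genes gave 5 higher and 4 lower of 46 tested (10.9% and 8.7%, background 3.54% and 5.5%). Under the GC and length correction they gave 9 higher and 0 lower. Lamp2 (0.18), the proton pump genes Atp6v0d2 (0.29) and Atp6v1a (0.16) and Gla (0.19) were higher.

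Smaller counts were found elsewhere. Where no median is printed beside a list above or here, it lay between -0.18 (alternative activation) and 0.09 (mitotic genes), against -0.00118 for all tested genes. Immediate-early genes gave 1 higher and 3 lower of 31 tested (3.23% and 9.68%, background 3.54% and 5.5%). Ier3 (log2 fold change -0.56) was lower in either analysis, while Jun (-0.19) and Junb (-0.41) lost their calls under the GC and length correction (adjusted p = 0.444 and 0.0722). Of p53 targets 3 of 21 were lower (14.3%, background 5.5%), including Gadd45a (-0.47). DNA replication genes gave 0 higher and 2 lower of 40 tested, and their 5.0% lower was near the 5.5% of all tested genes. Mitotic genes gave 2 higher (Mki67, 0.24, and Ccnb1, 0.22) and 0 lower of 32 tested, or 6.25% higher against 3.54% of all tested genes. The 13 mitochondrially encoded genes all lay above the BEX range, against 33.6% of all tested genes. Their median log2 fold change was 0.11. Of the 13 genes, 3 were called higher (23.1%, background 3.54%), namely ND5 (0.24), ND3 (0.24) and ND2 (0.14). Under the GC and length correction 1 was called.

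Beyond the lists, the largest rises with 6OHA among genes with a symbol other than a number were mostly at low levels. The 12 named were Rplp2-ps1, Rps24-ps3, Sytl2, Abcg1, Cav1, Ap3s1-ps2, Mylip, Moap1, Rps27rt, Otud1, Abca1 and Slc39a10. Sytl2, a vesicle transport gene, measured 2.03 CPM with 6OHA and 0.772 to 1.19 CPM with BEX (log2 fold change 1.12 ± 0.39, adjusted p = 0.0485). Caveolin-1 (Cav1) measured 2.0 CPM against 0.767 to 1.19 CPM (1.11 ± 0.39, adjusted p = 0.0497). Both calls were lost with the GC and length correction (adjusted p = 0.0514 and 0.0518), as was that of Rps24-ps3. Rplp2-ps1, Rps24-ps3, Ap3s1-ps2 and Rps27rt are copies of other genes, whose reads may be shared, and 87.7% of the exonic bases of Moap1 overlap Gm20604 on the same strand.

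Among the 12 largest falls were Camkk1, Arg1 and Mt2. The endothelin receptor gene Ednrb measured 1.51 CPM with 6OHA, 5.93, 6.29 and 4.26 CPM with BEX and 1.10 CPM untreated (log2 fold change -1.85 ± 0.44, adjusted p = 0.00161). The collagen gene Col14a1 measured 0.986 CPM with 6OHA, 4.60, 4.39 and 3.52 CPM with BEX and 0.366 CPM untreated (-2.07 ± 0.47, adjusted p = 0.000936). Ackr3 measured 1.19 CPM with 6OHA, 5.78, 4.99 and 3.37 CPM with BEX and 1.27 CPM untreated (adjusted p = 0.00374). In all of these 6OHA lay nearer to the untreated library than to BEX. Bglap2 (log2 fold change -2.48) and Bglap3 are osteocalcin genes that are near copies of each other. Npcd, Bglap3, Rnf225, Eva1c and Clcn2 had 0 counts with 6OHA, so their folds are bounds set by 3 counts in that library. Npcd was at least 54.7-fold lower than with BEX, Bglap3 at least 15.3-fold, Rnf225 at least 13.8-fold, Eva1c at least 8.99-fold and Clcn2 at least 8.27-fold lower. Untreated, Bglap3 had 0 counts, but Rnf225, Eva1c and Clcn2 had 35, 19 and 22. With BEX these last genes had 33 to 63, 24 to 37 and 24 to 30 counts, so only the 6OHA library was at 0. Npcd had 126, 139 and 272 counts with BEX and 0 untreated, and 61.3% of its exonic bases overlap Nptxr and 38.7% Cbx6 on the same strand. Zeros were not particular to 6OHA. Tested genes with 0 counts in a library numbered 10 for 6OHA, 8, 4 and 6 for BEX 1 to 3, and 10 for the untreated library. Those that also had at least 100 counts in another library numbered 4 for 6OHA, 4, 0 and 4 for BEX 1 to 3, and 3 for the untreated library. That minimum leaves out Bglap3, Rnf225, Eva1c and Clcn2.

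Differences between 6OHA and BEX followed GC content. The median log2 fold change was 0.06 in the lowest of 5 equal groups of genes ordered by GC content (median 41.2%) and -0.13 in the highest (median 57.4%). Set against the other BEX libraries in the same way, the highest group differed from the lowest by -0.02, 0.06 and -0.04 for BEX 1 to 3, against -0.18 for 6OHA. With a single 6OHA library, its own preparation and the compound cannot be told apart in this trend. With the correction, 1003 genes were called among 12714 with known GC content, and 779 of the 1190 original calls among them were kept. Without BEX replicate 1, the genes called higher fell from 472 to 289. Of the named genes above, Rxrb, Jun, Ccnb1, Strada, Atp6v1a, ND2, Kdr, Sytl2, Cav1 and Rps24-ps3 lost their calls without that library (adjusted p from 0.0504 for Kdr to 0.144 for ND2). Without BEX replicate 2 Jun, Sytl2, Otud1, Ap3s1-ps2 and Rps24-ps3 lost theirs, and without BEX replicate 3 Cd33, Strada, Cav1, Otud1, Ap3s1-ps2 and Rps24-ps3 did.

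**Figure D5:**
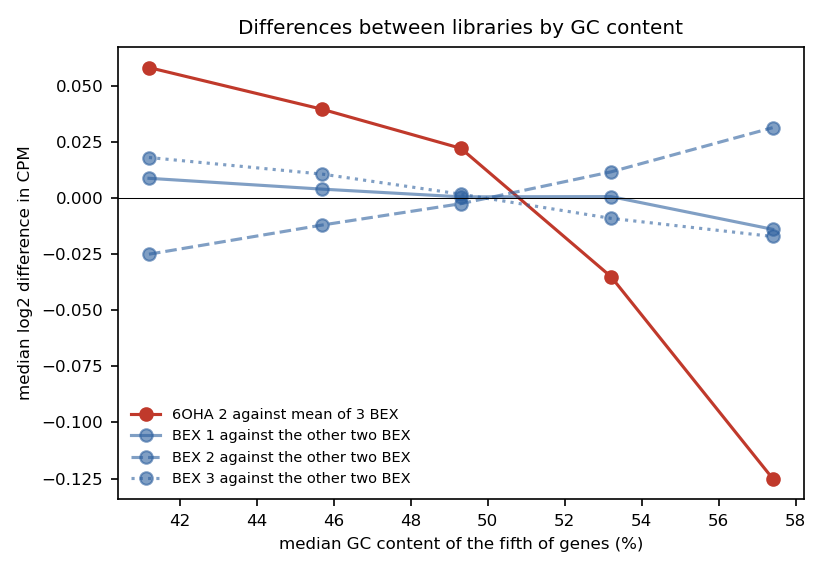
Median log2 difference in CPM (y axis) in 5 groups of genes ordered by GC content (x axis, median of each group in percent). The 6OHA library (red) is set against the mean of 3 BEX libraries, and each BEX library (blue) against the others. The 6OHA line falls from 0.06 to -0.13, while the BEX lines stay between -0.025 and 0.0314.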

How the data were processed

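The 5 libraries were TruSeq stranded poly-A RNA libraries, per the labels' protocols. The authors deposited 1 table for mm10 with raw read counts, FPKM and TPM per gene and library. The submitters' processing notes list StringTie 2.1.3b, HISAT2 2.1.0, Bowtie2, SAMtools 1.9, Trimmomatic 0.38 and bcl2fastq 2.20.0. What each tool did, and whether counting used strand, is not given in the sources used here. Deposited counts were tested with edgeR 4.0.16 (R 4.3.3, glmQLFit and glmQLFTest, TMM factors, two-sided, Benjamini-Hochberg), with 2 residual and 13.1 prior degrees of freedom, and the median SE of a log2 fold change was 0.12. Deposited TPM served only in alternatives, and deposited FPKM in none. Floors of 3 counts (0.0743 to 0.0885 CPM) cover counting error only. The fit was tested on simulated data. Positions came from RefSeq GRCm38.p6 by gene identifier (45679 of 45777 genes), and GC content and length from GENCODE transcripts by identifier or symbol (95.5% of tested genes). Promoter sequences came from RefSeq.

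Named genes were the 4 that define the comparison (Abcg1, Mylip, Arg1, Camkk1), a list of anchor genes whatever their p, the 12 largest called rises and falls except numbered Gm, LOC and Rik symbols, and up to 4 called members of each list with the smallest adjusted p. Other list members and Prrg4 were named after their values were seen. The comparison, lists and anchors were chosen with earlier results of these data known. A list is described by counts and its median, with no test. The 16 alternatives were DESeq2 1.42.0, RLE factors, limma-voom (limma 3.58.1), the older quasi-likelihood method, no filter, filterByExpr, a mean of at least 100 counts, limma-trend on log2(TPM + 1) and log2(TPM + 0.1), a fit with all 5 libraries, adjusted p alone, a 2-fold minimum, the omission of each BEX library in turn, and offsets from GC content and length. Some members of the lists are counted but not reported by name here.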

Additional observations from a re-analysis of the deposited data

How the results depend on the processing

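Across 16 alternatives the 128 named genes gave 2036 values, of which 1714 kept their direction and their side of the threshold, 311 kept the direction but lost the call, 3 gained a call and 8 changed sign. Adjusted p alone used the same fit and gave the same 1205 calls, because the range condition removed none. Its 128 values therefore add no information. Of the named genes, 71 were called under every alternative run except the 2-fold minimum and no filter. The counts of called genes (higher, lower) moved from 1205 (472, 733) to 225 (69, 156) with no filter, 442 (120, 322) on log2(TPM + 1), 499 (135, 364) on log2(TPM + 0.1) and 58 (14, 44) with a 2-fold minimum. The cause was not tested, except that the last counts a subset by construction. Offsets for GC content and length gave 479 lower genes in place of 733. Leaving out BEX replicate 1, 2 or 3 gave 849, 1255 and 1048 called genes, with 289 to 518 higher and 560 to 737 lower. DESeq2 called 965 genes and limma-voom 1130. Sign changes were all in genes that were not called. Mertk went to -0.00276 with no filter, -0.00054 with a mean of at least 100 counts, -0.00701 with offsets, and ranged from -0.00466 to 0.0104 when 1 BEX library was left out. Apoe went to 0.00129 and Rxra to 0.0243 with offsets, and Ncoa3 went to -0.0174 with offsets and ranged from -0.00149 to 0.0254 when 1 BEX library was left out. No paired analysis was possible because the 6OHA and BEX libraries share only 1 replicate number, 2. The single 6OHA library and 2 residual degrees of freedom limit every test here, and genes under 20 mean counts were not tested.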

Other observations

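Of 809 tested pseudogenes 26 were higher with 6OHA (3.21%) and 5 lower (0.618%), with a median log2 fold change of 0.14. Of 11485 protein-coding genes 433 were higher (3.77%) and 716 lower (6.23%), with a median of -0.00787. The share called higher was thus no larger among pseudogenes, and the share called lower was smaller. Cytosolic ribosomal protein genes, a list picked after its values were seen, gave 0 higher and 22 lower of 81 tested (27.2% lower, background 5.5%). Their median was -0.06. Their summed level was 22008 CPM with 6OHA, 22888 to 23540 CPM with BEX and 24593 CPM untreated. Under the GC and length correction that list gave 2 higher and 21 lower. Among lncRNA genes 9 were higher and 10 lower of 829 tested (1.09% and 1.21%, background 3.54% and 5.5%).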
